A study of Mus musculus with 9 samples.

Results

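The circadian clock genes described here are the 10 genes Bhlhe40, Bhlhe41, Per1, Per2, Per3, Cry1, Cry2, Arntl, Nr1d1 and Dbp, chosen by symbol out of 46517 genes in RNA-seq tables from mouse duodenal organoids. Organoids are crypt-derived epithelium grown as 3D structures in basement membrane matrix, here from wild-type C57BL/6 mice. Dissociated organoid cells received adenovirus at 50 particles per cell that carried GFP (Ad-GFP, the control), human HIF2 (Ad-hHIF2) or human HIF1 (Ad-hHIF1), with 3 samples in each group. Alanine replaces the prolines whose hydroxylation marks each HIF for breakdown through VHL, so both human proteins persist when oxygen is present. All groups, the controls included, were kept at 5% oxygen for about 72 hours in L-WRN conditioned medium, which supplies Wnt3a, R-spondin 3 and noggin. For all groups this medium also contained the ROCK inhibitor Y27632, the TGF-beta receptor kinase inhibitor SB431542 and nicotinamide. Each culture was harvested at a single time, and the hour of the day at harvest was not given in the sources used here, so the values are levels and not rhythms.

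The mammalian clock is a transcriptional feedback loop. ARNTL (BMAL1) pairs with CLOCK and binds E-box sequences to switch on the Per and Cry genes, the REV-ERB gene Nr1d1 and the output gene Dbp, and PER and CRY proteins return to silence that pair, while REV-ERB proteins repress Arntl. BHLHE40 (DEC1) and BHLHE41 (DEC2) are basic helix-loop-helix repressors that also bind E-boxes, and Bhlhe40 is known as a hypoxia-induced gene in many cell types. The intestinal epithelium holds a clock of its own, which times proliferation and nutrient uptake.

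Under Ad-hHIF2, Bhlhe40 was 2.11-fold higher than under Ad-GFP, and 5 other clock genes changed by less, so that 6 of 10 passed the test beside 29.5% of all genes. Cry2 and Arntl rose, and Nr1d1, Dbp and Per2 fell, while Bhlhe41, Per1, Per3 and Cry1 did not pass the test. Under Ad-hHIF1, 0 of 15233 genes passed edgeR's test against Ad-GFP, the 10 clock genes included. The difference between both HIFs, tested directly, was past the threshold for Bhlhe40, Per1, Cry2 and Dbp, beside 25.8% of all genes.

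Libraries held from 21722618 to 51119041 expected counts in total, and scaling factors (TMM) ran from 0.9066 to 1.027, except for 1.31 in Ad-hHIF2 replicate 1. The mouse Epas1 row, which encodes HIF2 alpha, held 757, 603.8 and 653.9 CPM (counts scaled to library size) in the Ad-hHIF2 samples and at most 3.06 CPM in each of the other 6. The Hif1a row held 299.1 to 319 CPM under Ad-hHIF1 and 197.4 to 251 CPM under Ad-GFP, a difference that did not pass edgeR's test (log2 fold change 0.49, adjusted p = 0.486). Both rows may hold reads of the human transgenes, which were not told apart from those of the mouse genes here. The paper reports adenoviral HIF overexpression from western blot and qRT-PCR. Of the 7 epithelial markers, 6 averaged at least 1 CPM and Cdx1 was at 0 in all samples, and the 3 duodenal markers Pdx1, Gata4 and Onecut2 summed to 102.2 to 115.4 CPM under Ad-GFP, 159.3 to 172 CPM under Ad-hHIF2 and 108.6 to 120.6 CPM under Ad-hHIF1. Summed leukocyte markers (0.874 to 1.85 CPM under Ad-GFP, 0.255 to 0.356 under Ad-hHIF2, 0.409 to 1.58 under Ad-hHIF1) were lowest in the 3 Ad-hHIF2 samples. Summed endothelial markers (1.6 to 3.11, 1.02 to 1.71 and 1.84 to 2.71 CPM in the same order) overlapped between Ad-GFP and Ad-hHIF2. Summed fibroblast markers (11.94 to 17.88, 9.53 to 12.68 and 9.79 to 19.1 CPM in that order) overlapped too. Of the 6 fibroblast markers, 4 overlapped singly between Ad-GFP and Ad-hHIF2. Col1a2 (1.142 to 1.725 against 1.898 to 3.194 CPM) and Lum (0 to 0.0588 against 0.191 to 0.35 CPM) lay below Ad-GFP, where Lum had at most 8 expected counts in any sample. Over all genes tested, 45.8% did not overlap between Ad-hHIF2 and Ad-GFP, the share to set beside these counts of single markers. Under Ad-hHIF2, 3 of the 7 epithelial markers did not overlap with Ad-GFP, Cdh1 (293.4 to 351.7 against 204 to 225.7 CPM) and Krt8 (1143 to 1357 against 1021 to 1119 CPM) above and Epcam (1.42 to 1.9 against 2.45 to 3.79 CPM) below. Of the 5 crypt markers, Lgr5 (0.333 to 1.19 against 0.0819 to 0.300 CPM) and Axin2 (0.708 to 1.002 against 0.0831 to 0.649 CPM) lay above Ad-GFP and Mki67 (4.69 to 6.04 against 6.09 to 8.89 CPM) below. Ascl2 (0 to 0.0685 against 0 to 0.55 CPM) overlapped, and Olfm4 was at 0 in both groups. Lgr5 and Axin2 had at most 51.62 and 47 expected counts in any sample. The crypt markers summed to 6.88 to 10.39 CPM under Ad-GFP, 5.94 to 7.72 under Ad-hHIF2 and 6.45 to 8.4 under Ad-hHIF1. Summed enterocyte markers were low in all groups, at 0.164 to 0.35 CPM under Ad-GFP, 0.47 to 1 under Ad-hHIF2 and 0.291 to 0.569 under Ad-hHIF1. The part of these markers in the results below was not tested, and in bulk RNA fewer cells of a type and less RNA per cell cannot be told apart.

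The 5′ sequences of 8 of the 10 clock genes matched a RefSeq promoter entry (build GRCm38.p6), and the 250 bases before the annotated start are given for 5 of them, as examples that hold each motif found and that fell, rose or did not pass the test under Ad-hHIF2. Capitals mark, on either strand, the E-box CACGTG, the shorter ACGTG that the hypoxia response element and the E-box both contain, its variant GCGTG (read as CACGC on the other strand) and the D-box TTATGTAA that DBP and its relatives bind. The Nr1d1 and Dbp windows belong to genes that fell under Ad-hHIF2, the Cry2 window to one that rose, and the Bhlhe41 and Per3 windows to genes that did not pass the test.
Nr1d1, chr11:98775378-98775627, minus strand: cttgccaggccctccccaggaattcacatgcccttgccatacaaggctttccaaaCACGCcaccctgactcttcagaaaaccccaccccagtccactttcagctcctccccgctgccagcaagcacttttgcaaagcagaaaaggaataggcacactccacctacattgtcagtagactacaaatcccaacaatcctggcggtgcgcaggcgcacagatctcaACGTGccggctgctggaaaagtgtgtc
Dbp, chr7:45704997-45705246, plus strand: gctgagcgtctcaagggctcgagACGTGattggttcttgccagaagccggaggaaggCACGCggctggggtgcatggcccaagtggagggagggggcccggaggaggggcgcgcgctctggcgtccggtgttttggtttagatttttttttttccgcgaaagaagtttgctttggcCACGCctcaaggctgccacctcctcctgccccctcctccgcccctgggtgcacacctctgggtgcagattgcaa
Cry2, chr2:92434070-92434319, minus strand: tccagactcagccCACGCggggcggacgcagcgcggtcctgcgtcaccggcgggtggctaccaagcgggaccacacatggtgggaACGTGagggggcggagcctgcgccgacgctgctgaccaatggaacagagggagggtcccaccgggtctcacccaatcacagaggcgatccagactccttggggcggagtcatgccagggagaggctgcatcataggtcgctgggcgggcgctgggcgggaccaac
Bhlhe41, chr6:145865421-145865670, minus strand: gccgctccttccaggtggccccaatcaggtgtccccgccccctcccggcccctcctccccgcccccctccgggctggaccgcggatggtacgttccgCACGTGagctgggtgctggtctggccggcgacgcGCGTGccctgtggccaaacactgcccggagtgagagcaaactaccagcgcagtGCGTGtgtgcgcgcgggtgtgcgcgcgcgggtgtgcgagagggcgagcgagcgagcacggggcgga
Per3, chr4:151044666-151044915, minus strand: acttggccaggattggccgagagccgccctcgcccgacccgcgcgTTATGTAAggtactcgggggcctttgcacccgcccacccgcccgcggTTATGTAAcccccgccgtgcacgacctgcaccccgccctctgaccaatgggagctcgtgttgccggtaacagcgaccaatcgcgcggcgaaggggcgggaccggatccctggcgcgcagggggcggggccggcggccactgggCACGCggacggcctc

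An E-box CACGTG began 153 bases before the start of Bhlhe41, 60 bases before that of Cry1 and 166 bases before one of the 2 annotated starts of Per1. Of 32851 promoter windows of this length, 6.02% held it. The Nr1d1, Dbp, Cry2 and Cry1 windows held ACGTG outside an E-box, 27, 227, 165 and 78 bases before the start, a string found in 16.6% of all windows. The Per3 window held TTATGTAA at 205 and 158 bases before the start, against 0.819% of windows with it at all. GCGTG was in 28.2% of windows, and the REV-ERB and ROR element (TAGGTCA or TGGGTCA) was in 5.38% of windows and in none of the members' windows, including both of Arntl. These matches describe the letters in a short window only.

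Bhlhe40 (ENSMUSG00000030103, chr6:108660629-108666925, plus strand, GRCm38) had 193.1, 196.5 and 190.6 CPM in the Ad-GFP samples and 436.6, 394.3 and 392 CPM in the Ad-hHIF2 samples. All Ad-hHIF2 samples lay above all others, since the Ad-hHIF1 samples had 185.8, 178.5 and 193.1 CPM, within or just under the control range. The Ad-hHIF2 increase was 1.08 on the log2 scale (SE 0.0771, 95% interval 0.90 to 1.25; edgeR's quasi-likelihood test with Benjamini-Hochberg adjustment over 14987 genes, adjusted p = 3.01e-05). Under Ad-hHIF1 the log2 difference was -0.06 (SE 0.0729, interval -0.23 to 0.11, edgeR adjusted p = 0.83). Set directly against Ad-hHIF1, Ad-hHIF2 was 2.19-fold higher (log2 1.13, SE 0.0739, edgeR adjusted p = 3.34e-06). Leaving out any single sample kept the Ad-hHIF2 increase between 1.05 and 1.11, past the threshold in 6 of 6 fits.

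Bhlhe41, the paralogue that encodes DEC2, did not show this pattern. Its level was 23.2, 24.7 and 23.8 CPM under Ad-GFP, 28.9, 24.8 and 23.2 CPM under Ad-hHIF2 and 24.6, 22.7 and 26.6 CPM under Ad-hHIF1, so the groups overlapped. The interval of the Ad-hHIF2 difference ran from -0.10 to 0.31 on the log2 scale and did not reach the Bhlhe40 increase (estimate 0.11, SE 0.0893, edgeR adjusted p = 0.408). The gene (chr6:145858243-145865558, minus strand) shares 1876 bases with Gm43909 on the opposite strand, and its expected counts were not whole numbers in any of the 9 samples, so part of its reads were divided among features. Dbp likewise had whole counts in 0 of 9 samples, and Nr1d1 and Cry2 had them in 1 of 9 each.

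**Figure D1:**
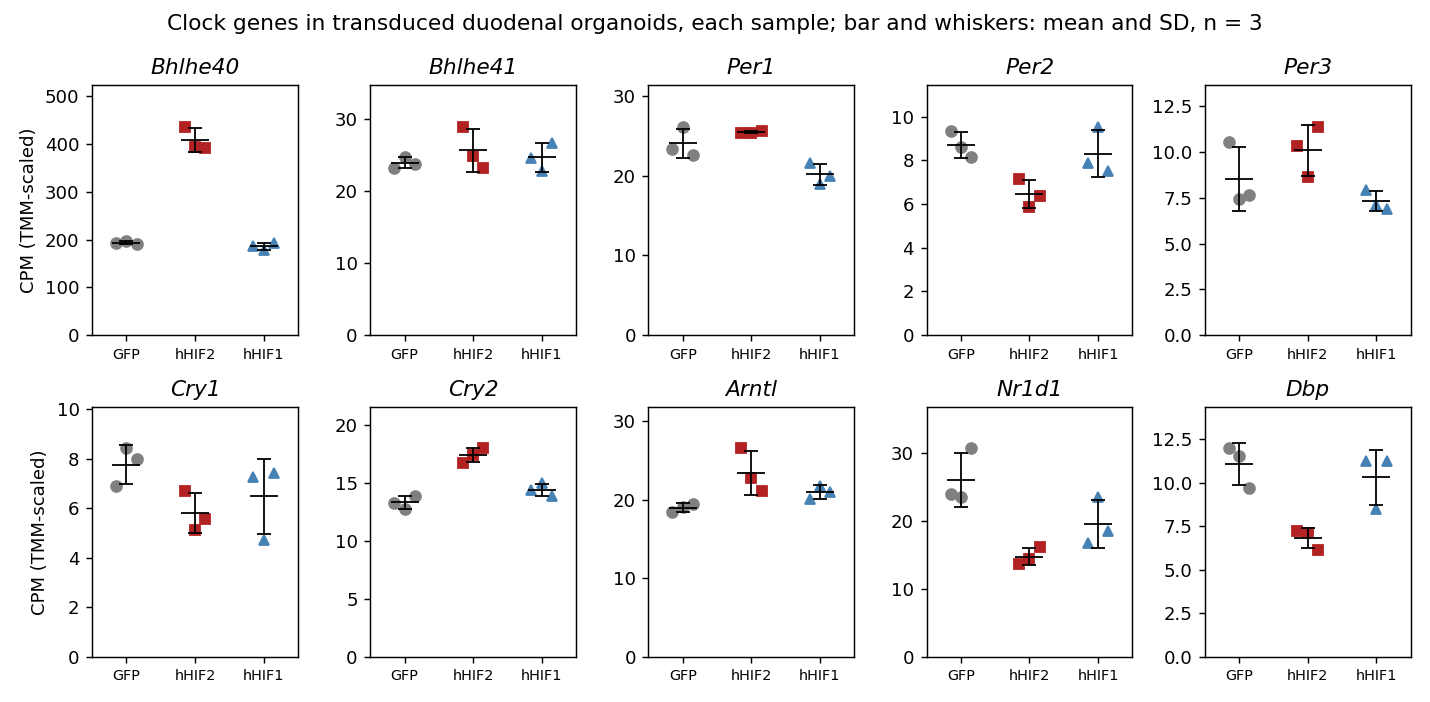
Level of each of the 10 clock genes in CPM with TMM scaling (vertical axes, each from 0) for the 3 samples of Ad-GFP, Ad-hHIF2 and Ad-hHIF1, with the mean as a bar and the SD as whiskers. Bhlhe40 stands at 392 to 436.6 CPM under Ad-hHIF2 against 178.5 to 196.5 CPM elsewhere, while the other 9 genes stay below 31 CPM in all samples.

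Of the 10 clock genes, 6 passed an adjusted p of 0.05 between Ad-hHIF2 and Ad-GFP, against 29.5% of all genes tested. Of these, 3 were higher (15.9% of all genes) and 3 lower (13.6%). With total counts only, 5 passed, 4 higher and 1 lower, where the median of all genes moved to 0.24. Only Bhlhe40 also passed a 2-fold threshold, which 6.73% of all genes did. The 3 Ad-hHIF2 values lay wholly above or below the 3 Ad-GFP values for 7 of the 10 genes (3 above and 4 below), where 45.8% of all genes did so (23.4% above and 22.4% below). The members' median log2 fold change was 0.10, beside -0.01 over all genes.

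Arntl (chr7:113207465-113314126, plus strand), the positive-arm partner of CLOCK, had 18.4, 19.1 and 19.5 CPM under Ad-GFP and 26.5, 22.7 and 21.1 CPM under Ad-hHIF2. The Ad-hHIF2 samples were all above the controls, with replicate 1 highest. The rise was 0.31 on the log2 scale, or 1.24-fold (SE 0.0934, edgeR adjusted p = 0.0363). The call was close to the threshold and was kept in 2 of 6 fits with a sample left out, with estimates of 0.23 to 0.39. It was lost in edgeR without Ad-hHIF2 replicate 1 (adjusted p = 0.119), Ad-hHIF2 replicate 3 (0.0815), Ad-GFP replicate 1 (0.104) or Ad-GFP replicate 3 (0.1). These fits hold fewer samples, and those with a sample left out called 3074 to 4539 genes in all, beside 4416 in the main test. The Ad-hHIF1 values of 20.1, 21.8 and 21 CPM also stood above all controls, with a log2 difference of 0.14 that did not pass the edgeR test (adjusted p = 0.637), and both HIF groups did not differ past the threshold (0.16, edgeR adjusted p = 0.224).

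Nr1d1 and Dbp, both direct targets of the CLOCK and ARNTL pair in the textbook loop, showed the largest decreases among the 10. Nr1d1 (REV-ERB alpha, chr11:98767932-98775333, minus strand) had 24, 23.5 and 30.7 CPM under Ad-GFP and 13.7, 14.5 and 16.1 CPM under Ad-hHIF2, so that the groups did not overlap. It fell by 0.81 on the log2 scale, to 0.569 of the control level (SE 0.122, edgeR adjusted p = 0.00159). The Ad-hHIF1 samples, at 16.8, 23.6 and 18.5 CPM, lay between, with replicate 3 inside the control range. Their log2 difference from Ad-GFP of -0.41 had an interval of -0.77 to -0.05 and an unadjusted p of 0.0287, but edgeR's adjusted p was 0.556. Between Ad-hHIF2 and Ad-hHIF1 the log2 difference of -0.41 did not pass the test (edgeR adjusted p = 0.0605). It did pass with no count filter (edgeR adjusted p = 0.0104), with at least 10 counts in every sample (edgeR, 0.0388), in DESeq2 (0.0288), without Ad-GFP replicate 4 (edgeR, 0.0356) and without Ad-hHIF1 replicate 1 (edgeR, 0.0354), and not in the other alternatives run.

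Dbp, a PAR bZIP transcription factor and a classic clock output (chr7:45705088-45710203, plus strand), had 12, 11.6 and 9.69 CPM under Ad-GFP and 7.2, 7.1 and 6.14 CPM under Ad-hHIF2. No Ad-hHIF2 sample reached any control, and the gene fell by 0.70 on the log2 scale, to 0.617 of the control level (SE 0.12, edgeR adjusted p = 0.00319). The Ad-hHIF1 samples had 11.2, 8.49 and 11.2 CPM, which overlapped the controls (log2 difference -0.10, edgeR adjusted p = 0.859). Here the direct test between both HIFs passed, with Ad-hHIF2 lower by a log2 difference of -0.60 (SE 0.139, edgeR adjusted p = 0.0104), although the adjusted p was 0.0504 without Ad-hHIF2 replicate 4. This direct call was also lost with total counts only (-0.42, edgeR adjusted p = 0.162, or -0.59 relative to the median of all genes) and on both TPM scales (limma adjusted p = 0.554 and 0.589). The Nr1d1 and Dbp decreases from Ad-GFP kept their calls in 6 of 6 fits with a sample left out, at -0.89 to -0.68 and -0.77 to -0.62. On log2 TPM with a pseudocount of 1 and of 0.1, both calls were lost in limma. Nr1d1 then stood at -0.16 and -0.28 (-0.28 and -0.58 relative to the medians of all genes). Dbp stood at -0.11 and -0.21 (-0.23 and -0.52 relative to those medians). With libraries scaled by total counts only, which moved the median of all genes to 0.24, Dbp stood at -0.44 with an edgeR adjusted p of 0.0968, which is -0.68 relative to that median.

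Both genes overlap a neighbour on the opposite strand, and whether counting used strand is not given in the sources used here. Nr1d1 shares 1075 bases with Thra, which encodes the thyroid hormone receptor alpha and averaged 18.6, 16.3 and 15.9 CPM under Ad-GFP, Ad-hHIF2 and Ad-hHIF1 (log2 difference -0.19 under Ad-hHIF2, edgeR adjusted p = 0.163). Dbp shares 737 bases with Sphk2, a sphingosine kinase gene that averaged 16.8, 20.4 and 15.9 CPM in that order. Sphk2 stood in the opposite direction to Dbp under Ad-hHIF2, with a log2 difference of 0.29 from Ad-GFP (edgeR adjusted p = 0.0557).

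**Figure D2:**
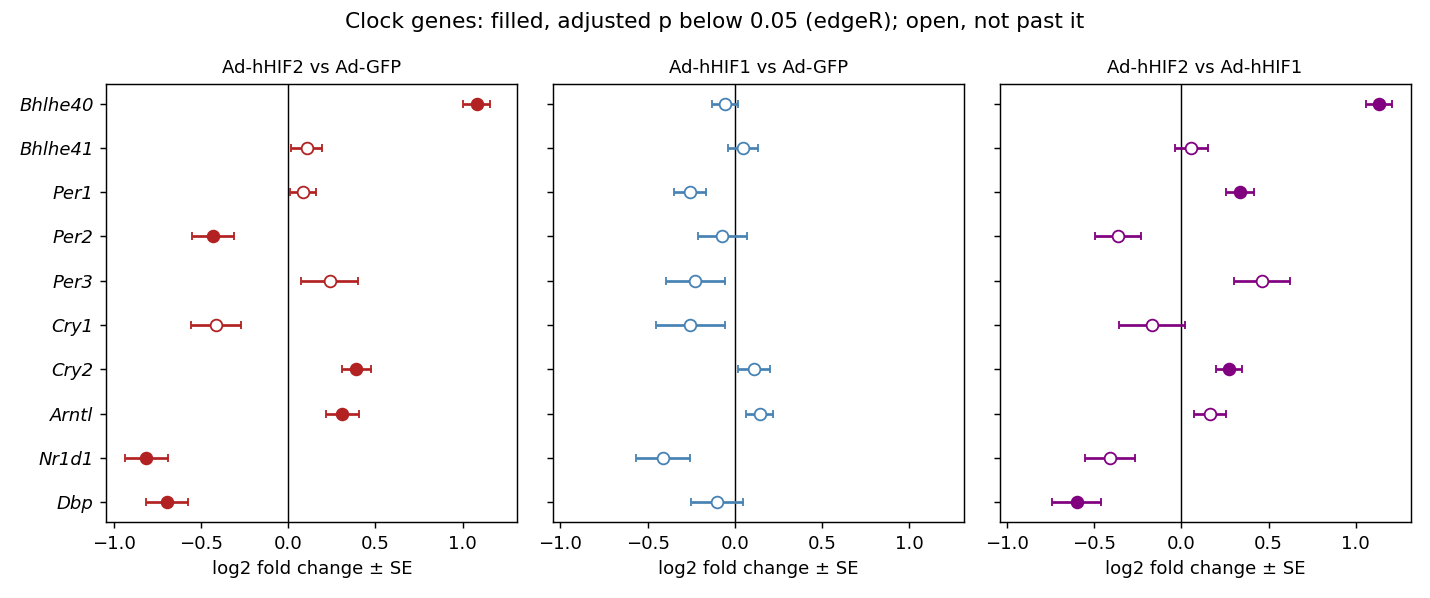
Log2 fold change with its standard error for the 10 clock genes in Ad-hHIF2 against Ad-GFP, Ad-hHIF1 against Ad-GFP and Ad-hHIF2 against Ad-hHIF1, where filled points passed an adjusted p of 0.05 in edgeR. The left panel has 6 filled points (3 to each side), the middle panel 0 and the right panel 4, and Bhlhe40 lies farthest from 0 in the left and right panels.

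The 3 Period genes encode repressors of the loop and differed from each other. Per2 (chr1:91415982-91459324, minus strand) had 9.34, 8.59 and 8.14 CPM under Ad-GFP and 7.13, 5.84 and 6.37 CPM under Ad-hHIF2, with no overlap. It fell by 0.43 on the log2 scale, to 0.742 of the control level (SE 0.121, edgeR adjusted p = 0.0277). Like Arntl, this call was kept in only 2 of 6 fits with a sample left out, with estimates of -0.49 to -0.36. The edgeR adjusted p was 0.0888 without Ad-GFP replicate 1, 0.0628 without Ad-GFP replicate 3, 0.104 without Ad-hHIF2 replicate 3 and 0.0834 without Ad-hHIF2 replicate 4. It was also lost with no count filter (0.0525) and with total-count scaling (-0.16, edgeR adjusted p = 0.613, or -0.40 relative to the median of all genes). On deposited TPM values its log2 difference turned to 0.02 with a pseudocount of 1 and to 0.04 with 0.1, where the medians of all genes were 0.12 and 0.30.

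Per1 (chr11:69095217-69109960, plus strand) was lower under Ad-hHIF1 than under Ad-hHIF2. It had 25.4, 25.3 and 25.6 CPM under Ad-hHIF2, a narrow spread, and 21.6, 18.9 and 19.9 CPM under Ad-hHIF1, all lower. The Ad-GFP samples, at 23.4, 26.1 and 22.6 CPM, spanned the Ad-hHIF2 values and lay above the Ad-hHIF1 values. Neither HIF passed the edgeR test against Ad-GFP (0.08 with adjusted p = 0.437 for Ad-hHIF2, and -0.26 with adjusted p = 0.534 and unadjusted p = 0.0239 for Ad-hHIF1). The direct difference of 0.34 did pass (1.26-fold, SE 0.0794, edgeR adjusted p = 0.0115), and in all 9 edgeR fits with a sample left out, with an adjusted p of up to 0.05 (without Ad-hHIF2 replicate 3). With limma on log2 TPM it did not pass (adjusted p = 0.349 with a pseudocount of 1 and 0.321 with 0.1). Per3 (chr4:151003652-151044665, minus strand) had 10.5, 7.42 and 7.64 CPM under Ad-GFP, 10.3, 8.61 and 11.4 CPM under Ad-hHIF2 and 7.94, 7.09 and 6.9 CPM under Ad-hHIF1. The Ad-hHIF2 values overlapped the controls (log2 difference 0.24, edgeR adjusted p = 0.317, or 0.0495 with total counts only) and lay above all Ad-hHIF1 values, where the difference of 0.46 was just short of the threshold (edgeR adjusted p = 0.0579). It passed with no count filter (edgeR adjusted p = 0.0192), with total counts only (edgeR, 0.037), in DESeq2 (0.0491), in the 6 HIF samples alone (edgeR, 0.0433), with the replicate number as a block (edgeR, 0.0469) and without Ad-GFP replicate 1 (edgeR, 0.0334), and not in the other alternatives run. The Per3 gene lies inside Camta1 on the same strand over 41014 bases, and Camta1 averaged 2.61 to 3.1 CPM.

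The Cryptochrome genes Cry1 and Cry2 encode the partners of the PER proteins and stood on opposite sides of the control under Ad-hHIF2. Cry2 (chr2:92403646-92434043, minus strand) had 13.3, 12.8 and 13.9 CPM under Ad-GFP and 16.8, 17.5 and 18 CPM under Ad-hHIF2. The Ad-hHIF2 samples were above all others, and the rise was 0.39 on the log2 scale, or 1.31-fold (SE 0.0839, edgeR adjusted p = 0.00905, kept in 6 of 6 fits with a sample left out), a call lost on both TPM scales (limma adjusted p = 0.281 and 0.216). The log2 difference of Cry2 on those scales was 0.34 (SE 0.194) and 0.73 (SE 0.365), or 0.22 and 0.43 relative to the medians of all genes. Under Ad-hHIF1 Cry2 had 14.4, 15 and 13.9 CPM, a log2 difference of 0.11 from the controls (edgeR adjusted p = 0.741). Between both HIFs the log2 difference was 0.27 (SE 0.0761, edgeR adjusted p = 0.0245), a call lost in DESeq2 (adjusted p = 0.06), with no count filter in edgeR (0.0969), on both TPM scales in limma (0.389 and 0.378) and in 4 of 9 edgeR fits with a sample left out. These were the fits without Ad-hHIF2 replicate 3 (0.0939), Ad-hHIF2 replicate 4 (0.0772), Ad-hHIF1 replicate 1 (0.0815) or Ad-hHIF1 replicate 4 (0.0713).

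Cry1 (chr10:85131700-85185064, minus strand) had 6.88, 8.42 and 7.99 CPM under Ad-GFP and 6.69, 5.14 and 5.56 CPM under Ad-hHIF2. The groups did not overlap, but the gap between 6.88 and 6.69 CPM was small and the log2 difference of -0.42 did not pass (SE 0.143, edgeR adjusted p = 0.058). Under Ad-hHIF1 it had 7.27, 4.73 and 7.44 CPM, and replicate 3 was the lowest of all 9 samples. That library held 108 Cry1 counts, the smallest count of any member in any sample.

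For Ad-hHIF1 against Ad-GFP, edgeR called 0 of the 10 clock genes and 0 of 15233 genes in all (0%). At an unadjusted p under 0.05 there were 2 clock genes, Per1 and Nr1d1, beside 8.59% of all genes. DESeq2 called 144 genes and limma-voom 5, with 0 clock genes in either, although DESeq2 gave no adjusted p for 6 of the 10 (Per2, Per3, Cry1, Cry2, Arntl and Dbp). The groups did not overlap for 2 of the 10 genes, Arntl above and Per1 below, where 17.4% of all genes did not overlap (8.38% above and 9.06% below). The members' median log2 difference was -0.09, beside 0.00 over all genes. The intervals bound what these samples allow: for Bhlhe40 they reach no higher than 0.11 on the log2 scale, while for Cry1 they run from -0.71 to 0.20.

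Between Ad-hHIF2 and Ad-hHIF1, fitted over all 9 samples, 4 of the 10 clock genes passed, against 25.8% of 15556 genes. Bhlhe40, Per1 and Cry2 were higher under Ad-hHIF2 (13.7% of all genes were) and Dbp was lower (12.0%). With total counts only, 4 passed, all higher. Bhlhe40 was the 1 gene also past 2-fold, as were 6.11% of all genes. The groups did not overlap for 7 of the 10, with 4 above and 3 below, where 41.8% of all genes did not overlap (22.7% above and 19.1% below). The remaining genes without overlap were Per3, Per2 and Nr1d1, with log2 differences of 0.46, -0.36 and -0.41 that were short of the threshold. This comparison and that of Ad-hHIF2 with Ad-GFP use the same Ad-hHIF2 samples, and both comparisons with Ad-GFP share their controls, so their values stand side by side and are not independent.

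To set levels of different genes against each other, CPM was divided by the effective length in kilobases. Per kilobase, Bhlhe40 was the most abundant clock gene in each group, at 65.8 ± 1.23 CPM per kb under Ad-GFP, 138.8 ± 8.77 under Ad-hHIF2 and 63.3 ± 2.3 under Ad-hHIF1 (SD, n = 3). Under Ad-GFP, Nr1d1 came next at 11.2 ± 2.38 CPM per kb, followed by Dbp at 9.92 ± 0.243 and Bhlhe41 at 9.75 ± 3.1, and these neighbours did not differ beyond their spread. Arntl (6.86 ± 0.191) and Per1 (6.2 ± 0.541) followed, then Cry2 (4.02 ± 0.17), Cry1 (2.7 ± 0.274), Per3 (1.69 ± 0.354) and Per2 (1.53 ± 0.107), all in CPM per kb, with Per3 and Per2 within their spread. Under Ad-hHIF2 the order in the middle was different. Bhlhe41 (9.86 ± 2.17) and Arntl (8.47 ± 1.01) then stood ahead of Nr1d1 (6.51 ± 0.451), Per1 (6.37 ± 0.117) and Dbp (6.14 ± 0.595), and the last 3 were within their spread of each other in CPM per kb. Per2 was 10th in all groups.

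**Figure D3:**
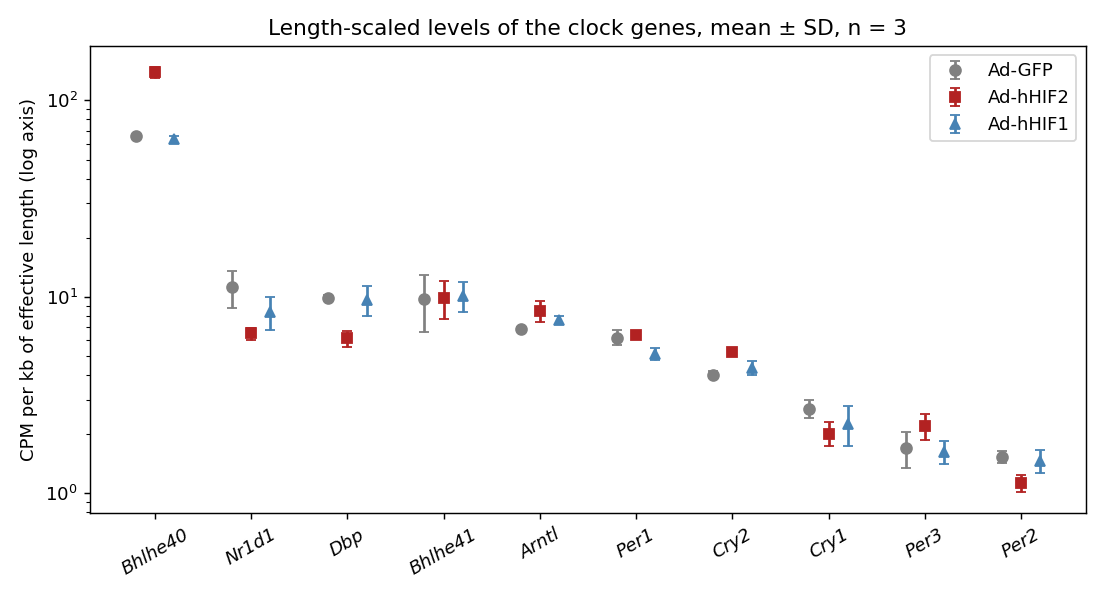
Length-scaled level of the clock genes, in CPM per kb of effective length on a log axis, as the mean with SD over the 3 samples of each group, ordered by the Ad-GFP level. Bhlhe40 stands apart at 63.3 to 138.8 CPM per kb, and Nr1d1 and Dbp drop under Ad-hHIF2 from 11.2 and 9.92 to 6.51 and 6.14.

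The deposited tables also give each gene's expression-weighted transcript length, which moves when the shares of its isoforms do. For Per2, Cry1 and Arntl a single length was listed in all samples. The other 7 genes gave 21 comparisons of length, in none of which 3 against 3 samples can reach an exact p below 0.1. Nr1d1 had a mean of 2405 bases under Ad-hHIF2 and 2496 bases under Ad-hHIF1 (two-sided exact permutation test, p = 0.1). Bhlhe40 kept 3051 to 3099 bases throughout. Bhlhe41 ran from 1919 to 3186 bases between samples of the same group, Ad-GFP, and its level per kilobase carries that spread.

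Outside the 10, the wider clock pathway was described by a list of 23 genes, of which 20 had enough counts for the test of Ad-hHIF2 against Ad-GFP. In this test, 7 passed (2 higher and 5 lower), beside 29.5% of all genes (15.9% higher and 13.6% lower), and 4 of them also passed 2-fold, beside 6.73%. With total counts only, 8 passed, 4 in each direction. On log2 TPM with a pseudocount of 1 or 0.1, limma called 0 genes of the list. The groups did not overlap for 17 of 20, with 5 above and 12 below, where 45.8% of all genes did not overlap (23.4% above and 22.4% below). The list's median was -0.20, beside -0.01 over all genes. Npas2 and Hlf, a CLOCK paralogue and a relative of Dbp, were too low to be tested in any comparison, at no more than 0.131 and 0.45 CPM.

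In the positive arm, Clock itself had 55.6, 57.6 and 55 CPM under Ad-GFP and 51.2, 51.8 and 50.5 CPM under Ad-hHIF2, a small gap without overlap that did not pass (log2 difference -0.13, edgeR adjusted p = 0.16). The ROR receptors activate Arntl through the element that REV-ERB proteins repress. Rora was at 5.41, 4.26 and 5.09 CPM under Ad-GFP and 3.45, 2.88 and 3.78 CPM under Ad-hHIF2 (-0.55, edgeR adjusted p = 0.0513), and the direct difference from Ad-hHIF1 passed (-0.53, edgeR adjusted p = 0.0415). Rorb, at 101.5, 169.6 and 100.9 CPM under Ad-GFP, 37.5, 63.1 and 72.2 CPM under Ad-hHIF2 and 102, 214.2 and 38.2 CPM under Ad-hHIF1, was lower under Ad-hHIF2 than under Ad-GFP (-1.10, edgeR adjusted p = 0.0156). The direct difference of Rorb from Ad-hHIF1 did not pass (-1.03, edgeR adjusted p = 0.162), and those groups overlapped. Its value varied widely within groups, and so did the share of counts in the predicted repeat-rich genes Gm10800 and Gm26870. That share was 1.77, 2.89 and 4.12% under Ad-GFP, 0.433, 1.38 and 2.02% under Ad-hHIF2 and 4.28, 16 and 1.15% under Ad-hHIF1. Within Ad-hHIF2 and within Ad-hHIF1 the 3 libraries had the same order in this share and in Rorb, and within Ad-GFP they did not. Its part in the Rorb difference was not tested. Arntl2 did not pass (-0.20, edgeR adjusted p = 0.62).

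In the negative arm and protein turnover, 2 of 9 genes passed, beside 29.5% of all genes. Ciart (CHRONO), a repressor of the CLOCK and ARNTL pair, had 22.6, 17.8 and 17.5 CPM under Ad-GFP, 10.3, 8.82 and 8.98 CPM under Ad-hHIF2 and 21.6, 28 and 25.2 CPM under Ad-hHIF1. It fell by 1.04 on the log2 scale under Ad-hHIF2 (SE 0.124, edgeR adjusted p = 0.00047). Between both HIFs the log2 difference was -1.41 (edgeR adjusted p = 3.67e-05). Csnk1d, a casein kinase that marks PER proteins for degradation, rose by 0.30 under Ad-hHIF2 (edgeR adjusted p = 0.0123), from 58.5, 59.9 and 61.5 CPM to 77.7, 71.5 and 71.2 CPM. Nr1d2, which encodes REV-ERB beta, the paralogue of the Nr1d1 product, differed by -0.02 (interval -0.26 to 0.22, edgeR adjusted p = 0.905), with 43.1, 48.2 and 35.4 CPM against 41.1, 43.4 and 40.1 CPM. The kinase Csnk1e, the ligase genes Fbxl21, Btrc and Fbxw11, and Timeless did not pass, at log2 differences of -0.42 to 0.25.

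Both testable genes of the PAR bZIP group and its antagonist passed, in opposite directions, beside 29.5% of all genes tested (15.9% higher and 13.6% lower). Nfil3 (E4BP4), a repressor at D-boxes, had 20.8, 20.4 and 16.9 CPM under Ad-GFP and 29.1, 26.6 and 26.9 CPM under Ad-hHIF2, and rose by 0.51 (SE 0.0921, edgeR adjusted p = 0.00411). Tef, an activator at D-boxes like Dbp, had 32, 29.9 and 32 CPM under Ad-GFP and 26.2, 25.8 and 26.7 CPM under Ad-hHIF2, and fell by 0.25 (SE 0.0675, edgeR adjusted p = 0.0235). So of the D-box factors tested, the activators Dbp and Tef were lower and the repressor Nfil3 was higher under Ad-hHIF2 in the main test. On both TPM scales limma called neither Tef nor Nfil3, and the Dbp call was lost (limma adjusted p = 0.805 and 0.739). Dbp also lost its call with total counts only (edgeR adjusted p = 0.0968). The Nfil3 and Tef differences between both HIFs were 0.27 and -0.14 and did not pass (edgeR adjusted p = 0.057 and 0.166).

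Among clock-controlled outputs, 2 of 4 tested genes passed, beside 29.5% of all genes (13.6% lower). These were Nampt and Klf10, and each fell under Ad-hHIF2. Nampt, the rate-limiting enzyme of NAD salvage, had 118.8, 134.1 and 131.8 CPM under Ad-GFP, 62.6, 54.8 and 59.7 CPM under Ad-hHIF2 and 128.4, 137.4 and 141.1 CPM under Ad-hHIF1. It fell by 1.12 on the log2 scale from Ad-GFP (SE 0.0822, edgeR adjusted p = 3.42e-05). Klf10, a zinc-finger factor induced by TGF-beta, had 30.7, 27.1 and 24.7 CPM under Ad-GFP, 11, 12.1 and 12.2 CPM under Ad-hHIF2 and 33.3, 33.6 and 31.6 CPM under Ad-hHIF1. It fell by 1.22 (SE 0.0995, edgeR adjusted p = 5.63e-05). Both were also lower under Ad-hHIF2 than under Ad-hHIF1 (-1.20 and -1.48, edgeR adjusted p = 4.26e-06 and 2.17e-06). Wee1, a cell-cycle kinase, differed by 0.32 from Ad-GFP (edgeR adjusted p = 0.179) and was higher than under Ad-hHIF1 (0.62, edgeR adjusted p = 0.0221), and Noct did not pass (-0.10, edgeR adjusted p = 0.507).

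**Figure D4:**
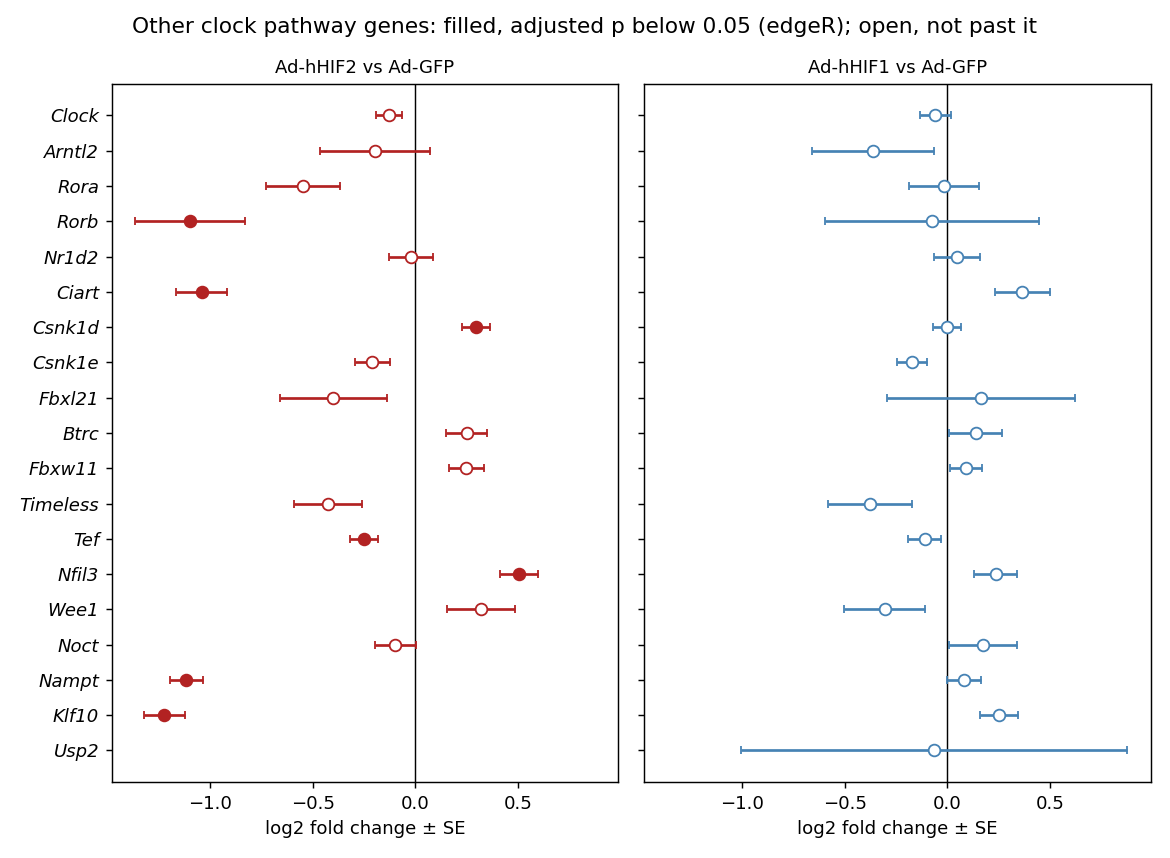
Log2 fold change with its standard error for 19 genes of the wider clock list in Ad-hHIF2 against Ad-GFP (left) and Ad-hHIF1 against Ad-GFP (right, the only panel with Usp2), where filled points passed an adjusted p of 0.05 in edgeR. The left panel has 7 filled points, with Klf10, Nampt, Rorb and Ciart beyond -1, and the right panel has 0.

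Under Ad-hHIF1 edgeR called 0 of 21 tested genes of the wider list, as did limma-voom and, among the 12 genes it gave an adjusted p, DESeq2, with 3 at an unadjusted p under 0.05, beside 8.59% of all genes. Between both HIFs 6 of 21 passed, beside 25.8% of all genes, with Csnk1d and Wee1 higher under Ad-hHIF2 and Ciart, Klf10, Nampt and Rora lower.

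Genes with the pattern nearest to that of Bhlhe40 were sought among 7235 genes that averaged at least 10 CPM, by the root mean square difference of centred log2 CPM over the 9 samples. The 5 nearest were Fn1 (0.0427), Lrp5 (0.0595), Mbp (0.0644), Cbx6 (0.0646) and Abcc3 (0.0656). Fn1, which encodes fibronectin, had 868.8, 838.2 and 831.3 CPM under Ad-GFP, 1963, 1741 and 1792 CPM under Ad-hHIF2 and 813.3, 822.3 and 809 CPM under Ad-hHIF1. The other 4 had log2 differences of 1.04 to 1.10 under Ad-hHIF2 and -0.13 to 0.02 under Ad-hHIF1. Such values near those of Bhlhe40 follow from the choice by pattern over the same 9 samples and are a description only.

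The 10 clock genes were refitted under each processing alternative for Ad-hHIF2 against Ad-GFP. Bhlhe40 was past the threshold and above 1 on the log2 scale in each of them. The TPM scales and total-count scaling, which moved the median of all genes to 0.12, 0.30 and 0.24, shifted most clock genes upward, and relative to those medians Per2, Cry1, Nr1d1 and Dbp stayed below 0. On the TPM scales Bhlhe40 alone of the 10 passed in limma, and the calls of Cry2 (adjusted p = 0.281 and 0.216), Arntl (0.272 and 0.235), Nr1d1 (0.699 and 0.651), Dbp (0.805 and 0.739) and Per2 (0.883 and 0.941) were lost. These losses were unlike in size. Cry2 stood at 0.34 and 0.73 and Arntl at 0.42 and 0.70, beside 0.39 and 0.31 in the main test. Nr1d1 (-0.16 and -0.28) and Dbp (-0.11 and -0.21) were smaller in size than in the main test (-0.81 and -0.70).

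**Figure D5:**
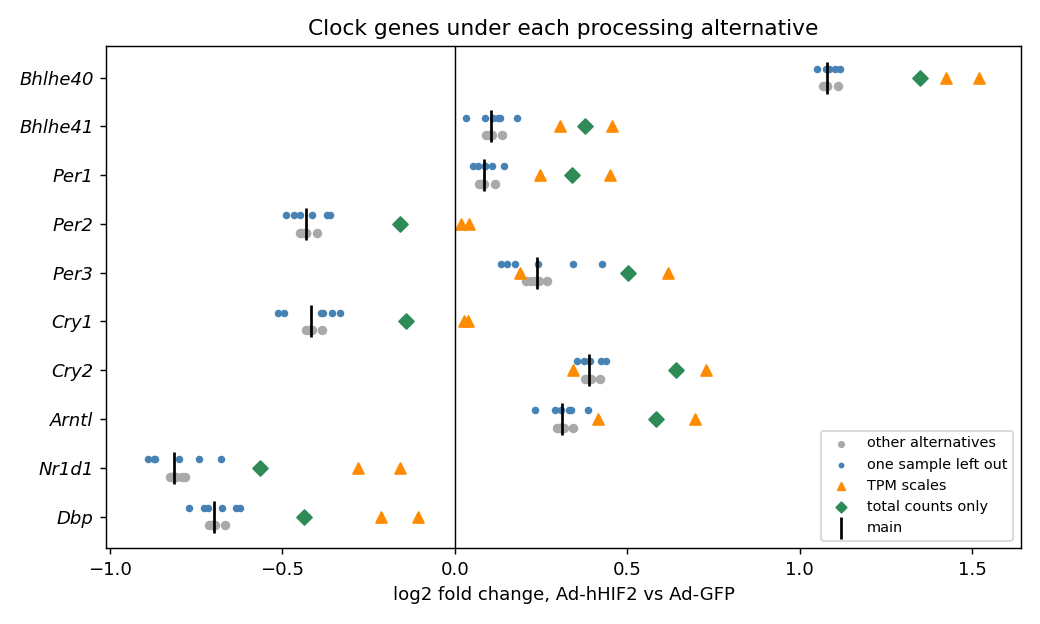
Log2 fold change of each clock gene in Ad-hHIF2 against Ad-GFP under the main test (black bar), with 1 sample left out (blue), on TPM scales (orange triangles), with total counts only (green diamonds) and under the other alternatives (grey). Bhlhe40 runs from 1.05 to 1.52, Nr1d1 and Dbp stay below 0, and the orange triangles of Per2 and Cry1 lie at 0.02 to 0.04.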

How the data were processed

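RNA-seq was analysed from 9 samples of mouse duodenal organoids, with 3 per adenovirus, and the labels gave the groups. The study describes 3 biological replicates per group. Reads of low quality were removed by the authors, who quantified transcripts with RSEM and deposited gene tables with expected counts, TPM values, lengths and effective lengths. The aligner, the RSEM version, the genome build and the strand setting are not given in the sources used here. The authors' expected counts divide reads that fit several features. Here they were rounded to whole numbers and tested with edgeR 4.0.16 in R 4.3.3 (filterByExpr, TMM factors, quasi-likelihood test, Benjamini-Hochberg adjustment over all genes tested). Comparisons with Ad-GFP used only the 6 samples concerned, and Ad-hHIF2 was set against Ad-hHIF1 in a fit of all 9. Calls were made below an adjusted p of 0.05. The deposited TPM values were used only in alternatives: genes of effective length under 100 bases took 67.5 to 73.6% of each TPM total, so levels of different genes were compared as CPM per kb of effective length instead of the planned TPM.

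Positions come from GENCODE M21 (GRCm38), where 46005 of 46517 gene IDs matched, and promoter sequences from RefSeq. Named genes were the 10 members, the wider clock list, Epas1 and Hif1a, overlapping genes, cell type markers and the 5 genes nearest to Bhlhe40. Of the wider list, 2 genes enter the counts but are not reported singly here. The members and lists were chosen with earlier results of these data known. Alternatives were other filters and scalings, DESeq2 1.42.0, limma 3.58.1 (voom, and log2 TPM with a pseudocount of 1 or 0.1), other sample sets, a replicate block and leaving out each sample. The test was checked on simulated counts, where 2-fold changes were recovered less often than 4-fold ones and DESeq2 made false calls above its nominal rate in all 3 comparisons, least for Ad-hHIF1 against Ad-GFP. The limits set for recovery were loosened after a first run did not meet them. Confidence intervals are at 95% and cover the spread between these samples only.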

Additional observations from a re-analysis of the deposited data

How the results depend on the processing

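Across filters, median-ratio size factors, DESeq2, limma-voom and the fit of all 9 samples, 5 or 6 clock genes passed for Ad-hHIF2 against Ad-GFP, as 6 did in the main test. On log2 TPM with a pseudocount of 1, limma called 1 clock gene, 0 genes of the wider list and 1010 genes in all for Ad-hHIF2 against Ad-GFP (6, 7 and 4416 in the main test), and with 0.1 it called 1, 0 and 1109. Per2 turned from -0.43 to 0.017 and 0.041 on these scales, relative to all-gene medians of 0.12 and 0.30. For Ad-hHIF2 against Ad-hHIF1, these scales gave 1, 0 and 367, and 1, 1 and 460 (4, 6 and 4008 in the main test). The 2-fold rule left 1 clock gene in each of these comparisons. For Ad-hHIF1 against Ad-GFP, where edgeR called 0 genes, there were 384 with no count filter, 144 in DESeq2, 5 in limma-voom and 7 with all 9 samples. Of these, 1 clock gene was among the 384 (Nr1d1, -0.41, edgeR adjusted p = 0.0446), and DESeq2 gave no adjusted p for 6 of the 10. At an unadjusted p under 0.05 in the main test there were 2 clock genes. The cause of these shifts was not tested.

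With total counts only, 80.9% of the calls for Ad-hHIF2 against Ad-GFP were higher, and 80.6 and 81.1% on the TPM scales, beside 53.9% in the main test. Against Ad-hHIF1 these shares were 72.3, 85.8 and 82.8%, beside 53.3%. Leaving out 1 sample gave 3074 to 4539 genes, 4 to 6 clock genes and 5 to 7 of the wider list for Ad-hHIF2 against Ad-GFP, and 0 of each for Ad-hHIF1. For Ad-hHIF2 against Ad-hHIF1 it gave 2594 to 4335, 2 to 5 and 4 to 7. The lowest of these came without Ad-hHIF2 replicate 1 (2594 genes) and without Ad-hHIF2 replicate 4 (2 clock genes). In all, 136 of 160 member values for Ad-hHIF2 against Ad-GFP, 141 of the 154 with an adjusted p for Ad-hHIF1 and 160 of 190 between both HIFs kept direction and side of the threshold.

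Deviations of same-numbered samples from their group means correlated at 0.07 to 0.13 between Ad-GFP and Ad-hHIF2, where other pairs averaged -0.05. They correlated at -0.09 to 0.10 between Ad-GFP and Ad-hHIF1 (other pairs -0.00) and -0.19 to -0.07 between both HIFs (other pairs 0.06). Whether equal numbers mark a shared mouse or batch is not given in the sources used here, and these weak correlations cannot settle it. With the replicate number as a block, edgeR called 4631, 0 and 3637 genes and 6, 0 and 5 clock genes in the 3 comparisons, the addition being Per3. Counts per sample were lowest for Cry1, at 108 to 304.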
